A study of Sus scrofa with 24 samples.

Results

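The genes described here are a group of cholesterol synthesis genes in the hippocampus of 14 day old piglets. They comprise the enzyme genes HMGCS1, SQLE, IDI1, FDFT1, DHCR7 and MSMO1 and the feedback regulator INSIG1. The genes were chosen by name, with earlier results of these data known. Rows were found by matching the Entrez gene identifier to the pig symbol, which gave a row for 6 of the 7. IDI1, an isomerase early in the pathway, could not be matched and has no value here. All 6 matched genes were above the expression filter, so they are 6 of the 16326 genes tested and of the 38882 listed.

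Hippocampal polyA RNA from 24 piglets was sequenced with a strand-specific kit, 6 piglets in each of 4 groups. Piglets were small (SGA) or appropriate (AGA) for gestational age and were fed a control (CON) or a hydrolyzed fat (HF) formula, giving AGA CON, SGA CON, AGA HF and SGA HF. All piglets came from 1 cross (PIC Camborough dams and PIC 359 sires), both sexes were used, and the litters arrived in 2 cohorts. Piglets were sex-matched pairs of 1 SGA and 1 AGA from a litter, fed alike, so size was compared within 12 litters and diet between 6 CON and 6 HF litters. Of the 2 formulas, HF was the one with cholesterol among its listed ingredients. Size was defined at birth, so size at birth and anything that followed from it cannot be told apart.

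Library totals ran from 6017336 to 9284355 counts with a median of 7346072, and no 2 libraries held identical counts. A count of 3 was worth 0.323 to 0.499 CPM, well under the levels of all 6 genes. Levels are CPM on TMM-scaled library sizes, and a comparison between genes is made only in CPM per kilobase of exon. Markers of neurons (SNAP25, at least 497 CPM in each library), astrocytes (GFAP, at least 6733 CPM), oligodendrocytes (MBP, at least 3758 CPM) and granule neurons of the hippocampus (PROX1, at least 37.1 CPM) were present throughout.

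Brain cells make nearly all of their own cholesterol, because the blood-brain barrier keeps lipoprotein cholesterol out. The pathway builds isoprenoid units from acetyl-CoA, joins them into squalene, closes squalene into the first sterol and then trims that sterol to cholesterol. Its genes are switched on together by the SREBP transcription factors when membrane sterol is low. INSIG1 holds the SREBP escort protein SCAP in the endoplasmic reticulum when sterol is high, and is itself a target of SREBP. In the young brain much of the demand comes from oligodendrocytes, which wrap axons in cholesterol-rich myelin.

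In the Sscrofa10.2 annotation of the count files, HMGCS1 lies on chromosome 16 (29432931 to 29452429, plus strand) and FDFT1 on chromosome 14 (16164964 to 16199406, plus strand). SQLE lies on chromosome 4 (15248863 to 15279281), DHCR7 on chromosome 2 (851404 to 864968), MSMO1 on chromosome 8 (45557631 to 45618277) and INSIG1 on chromosome 18 (2896505 to 3019640), all on the minus strand. Counts were summed over the annotated exons, between 1833 bases for MSMO1 and 3482 bases for HMGCS1.

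Per kilobase of exon, the 6 genes fell into an upper and a lower set. The paper gives RNA quality only as an average over the samples, and accounts for its value by pre-spliced RNA. The bearing of RNA quality on levels between genes in these polyA libraries was not tested. MSMO1, which takes a methyl group off the early sterols, had 122 ± 19.7 CPM per kilobase (SD over 24 libraries). HMGCS1, which makes HMG-CoA for the mevalonate route, had 118 ± 20.7 CPM per kilobase, and FDFT1, which makes squalene, had 97.3 ± 13.0 CPM per kilobase. MSMO1 and HMGCS1 differed by less than their spread, and FDFT1 lay below MSMO1 by more than the SD of either. SQLE, which oxidises squalene, had 42.8 ± 5.33 CPM per kilobase. DHCR7, which catalyses a last step to cholesterol, had 32.2 ± 4.13 and INSIG1 had 31.6 ± 5.08 CPM per kilobase, so these last 2 also lay within their spread. Among 20 genes ranked, these 6 and 14 other synthesis genes, FDPS was highest with 251 ± 34.6 CPM per kilobase.

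MSMO1 and INSIG1 were lower in the SGA than in the AGA littermates. MSMO1 was lower in the SGA piglet of 12 of 12 litters and INSIG1 in 11 of 12. FDFT1 was lower in 12 of 12 litters and HMGCS1 in 10 of 12, with fold changes that did not pass the threshold after adjustment. SQLE was lower in 8 of 12 litters and DHCR7 in 5 of 12. The contrast was tested with edgeR's quasi-likelihood test with litter as a block, and Benjamini-Hochberg FDR p-values were computed over 7 contrasts together. A gene is called at an FDR p under 0.4, the threshold the study set for its heat map. At that threshold 2 of the 6 genes were called for size, both lower in SGA, where 0.919% of all tested genes were called and 0.619% were called lower. No gene of the 16326 passed an FDR p of 0.05 for size.

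MSMO1 had CPM of 184, 224 and 266 (lowest, median and highest of 6) in AGA CON and 136, 206 and 225 in SGA CON. On HF the MSMO1 values were 214, 253 and 301 CPM in AGA and 192, 216 and 244 CPM in SGA. The SGA values sat lower on both diets, and the groups overlapped on both. The SGA minus AGA log2 fold change of MSMO1 was -0.24 ± 0.06 (SE), a fall by 15.6% (edgeR adjusted p = 0.379). An exact two-sided sign-flip test over the 12 littermate differences gave p = 0.000488, the smallest that 12 litters allow.

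INSIG1 had CPM of 72.8, 99.4 and 112 in AGA CON and 68.7, 78.4 and 93.1 in SGA CON. On HF the INSIG1 values were 72.6, 106 and 114 CPM in AGA and 71.5, 83.3 and 96.5 CPM in SGA. The medians were lower in SGA on both diets while the lowest piglets of each group were close together. The log2 fold change of INSIG1 was -0.24 ± 0.06 (edgeR p = 0.000728, adjusted p = 0.359, exact sign-flip p = 0.00146).

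HMGCS1 had CPM of 310, 444 and 524 in AGA CON and 307, 357 and 450 in SGA CON. On HF the HMGCS1 values were 332, 463 and 548 CPM in AGA and 335, 394 and 494 CPM in SGA. The groups overlapped over most of their range on both diets. The littermate log2 difference of HMGCS1 had a mean of -0.21 with an SD of 0.24 (edgeR p = 0.00602, adjusted p = 0.618, exact sign-flip p = 0.0171).

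FDFT1 had CPM of 196, 219 and 249 in AGA CON, against 151, 197 and 237 in SGA CON. On HF the FDFT1 values were 187, 227 and 273 CPM in AGA and 176, 208 and 247 CPM in SGA. The differences of FDFT1 were small but had the same sign in every litter, from -0.55 to -0.02 on the log2 scale. Its log2 fold change was -0.16 ± 0.05 (edgeR p = 0.00688, adjusted p = 0.629), with the smallest possible exact sign-flip p of 0.000488.

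SQLE had medians of 122 CPM in AGA CON and 117 CPM in SGA CON, and of 136 CPM in AGA HF and 125 CPM in SGA HF. Its piglets ranged from 96.5 to 176 CPM, and the groups overlapped. The log2 fold change of SQLE for size was -0.11 with a 95% interval of -0.23 to 0.01 (edgeR adjusted p = 0.814, exact sign-flip p = 0.0747). DHCR7 had medians of 88.7 CPM in AGA CON, 90.1 CPM in SGA CON, 88.2 CPM in AGA HF and 85.1 CPM in SGA HF. Its log2 fold change for size was 0.03 with a 95% interval of -0.09 to 0.15 (edgeR adjusted p = 0.962, exact sign-flip p = 0.587), so a difference of the size seen in MSMO1 lies outside that interval.

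**Figure D1:**
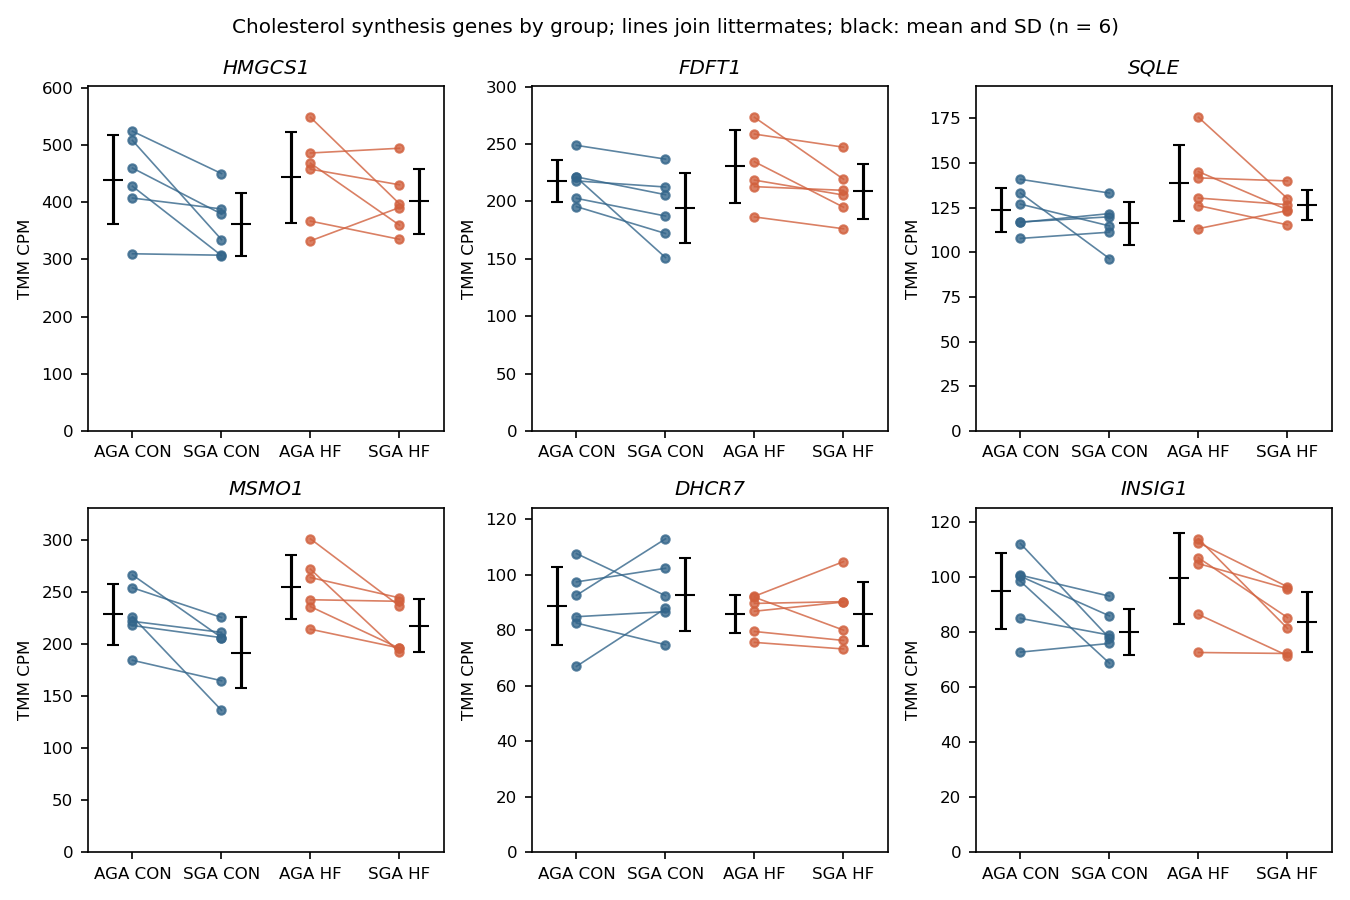
CPM of the 6 measured genes (y axes, TMM-scaled, from 0) in the 4 groups (x axes), 1 point per piglet, with lines joining littermates and black bars for the group mean and SD (n = 6). The MSMO1 and FDFT1 lines slope down in all 12 litters, while the DHCR7 lines go both ways.

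Taking the 6 genes together, 4 had an unadjusted edgeR p under 0.05 with a lower level in SGA, where 6.28% of all tested genes did so. An exact sign-flip p under 0.05 was reached by 4 of the 6 and by 12.6% of all genes. In 10 or more of the 12 litters the sign was shared for 4 of the 6, namely HMGCS1, FDFT1, MSMO1 and INSIG1, and for 8.69% of all genes. The median log2 fold change was -0.18 over the 6 genes and 0.003 over all genes.

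The litters differed in how far the genes moved. In the litter of CON replicate 6 the median of the 6 differences was -0.50 on the log2 scale, with MSMO1 at -0.73, FDFT1 at -0.55, INSIG1 at -0.52 and DHCR7 at 0.29. In that of HF replicate 5 the median was -0.33 and in that of CON replicate 2 it was -0.24. The median nearest to 0 was -0.04, in that of HF replicate 6. In each of the 12 litters the median was below 0, and at least 4 of the 6 genes were lower in the SGA piglet.

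**Figure D2:**
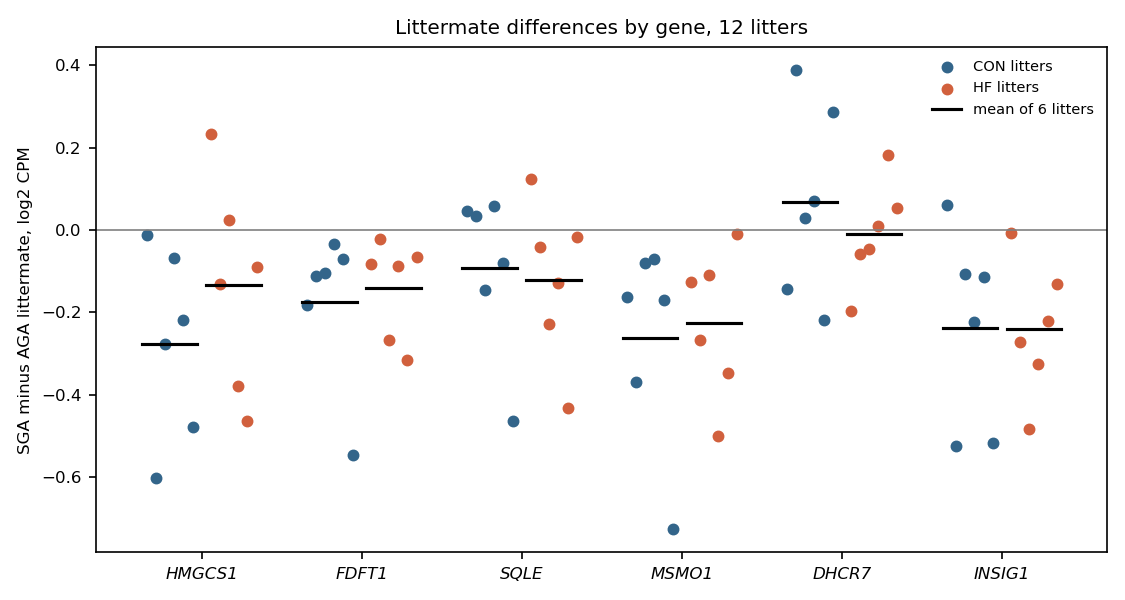
SGA minus AGA difference in log2 CPM (y axis) for each of the 6 genes (x axis), 1 point per litter, blue for the 6 CON and orange for the 6 HF litters, with black lines at the mean of 6 litters. All 12 points of MSMO1 and of FDFT1 lie below 0, and those of DHCR7 lie on both sides.

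The calls for MSMO1 and INSIG1 depended on how the libraries were modelled. In the model of the study's methods, with the 4 groups, sex and 5 surrogate variables and no litter term, the log2 fold changes shrank to -0.07 (edgeR adjusted p = 0.849) for MSMO1, -0.10 (adjusted p = 0.76) for INSIG1, -0.08 for FDFT1 and -0.02 for HMGCS1, and none of the 6 genes had an unadjusted p under 0.05. Leaving out 1 litter ended the FDR call of MSMO1 for 8 of the 12 litters and that of INSIG1 for 9 of the 12, while the number of genes lower at an unadjusted edgeR p under 0.05 stayed at 4 or 5 of the 6. MSMO1 kept its call without CON replicates 1, 3 or 4 or HF replicate 3, and INSIG1 without CON replicates 1 or 3 or HF replicate 1. Neither cohort alone gave a call, and the log2 fold change of MSMO1 was -0.20 in cohort 1 and -0.31 in cohort 2.

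**Figure D3:**
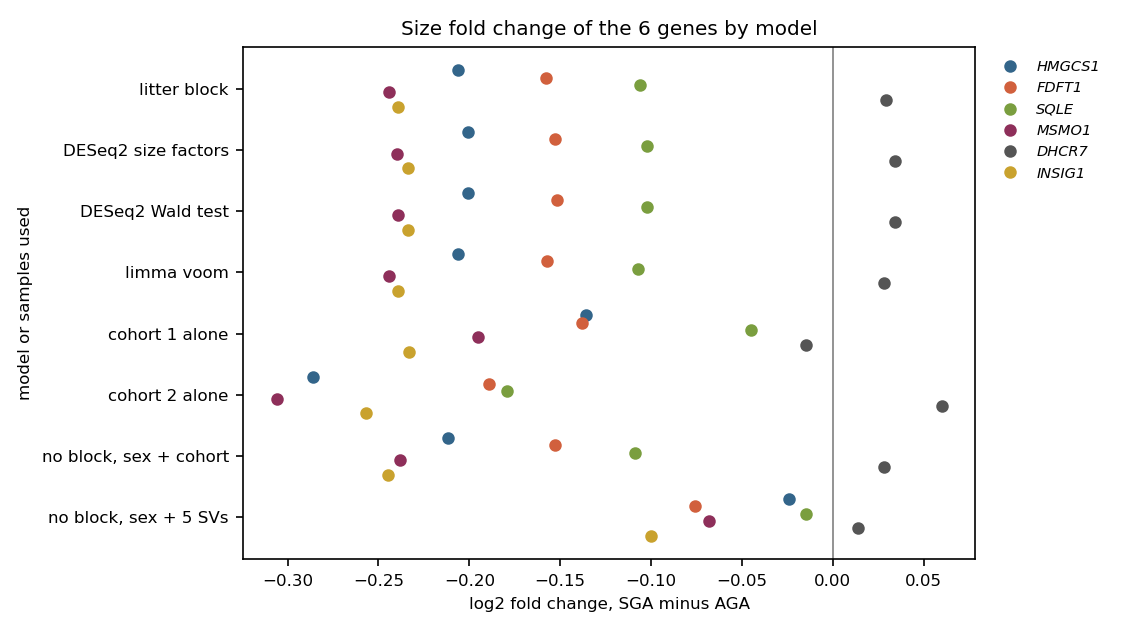
SGA minus AGA log2 fold change (x axis) of the 6 genes (colours) under 8 models or sample sets (y axis; SVs are surrogate variables estimated from the data). MSMO1, INSIG1, HMGCS1, FDFT1 and SQLE lie below 0 in all 8, and closest to 0 in the model with 5 surrogate variables.

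Oligodendrocyte markers moved in the same direction with size as 5 of the 6 genes, all but DHCR7. All 8 of the listed markers (among them MBP, MOG, MAG, CNP, MOBP, CLDN11 and ERMN, myelin proteins and their partners) had a negative size fold change. Of the 8, 6 had an unadjusted edgeR p under 0.05 and 3 were called. Of all genes, 49.22% had a negative size fold change, 6.28% were lower at such a p and 0.619% were called lower. The median log2 fold change of the 8 markers was -0.31, and it was -0.21 with 5 surrogate variables and no litter term. Their summed level was 13900, 22290 and 25310 CPM (lowest, median and highest) in the 12 AGA libraries and 11670, 17190 and 22960 CPM in the 12 SGA libraries, and none of the 8 was at 0. The median marker difference was below 0 in 10 of the 12 litters. In the other two, those of HF replicates 1 and 5, it was 0.19 and 0.15 on the log2 scale. In the litter of HF replicate 1, HMGCS1 was at 0.23, SQLE at 0.12, INSIG1 at -0.007, FDFT1 at -0.08, MSMO1 at -0.13 and DHCR7 at -0.20. In that of HF replicate 5, DHCR7 was at 0.18, INSIG1 at -0.22, FDFT1 at -0.32, MSMO1 at -0.35, SQLE at -0.43 and HMGCS1 at -0.47. In whole tissue, fewer cells of a type and less RNA per cell cannot be told apart, and the part of the markers in the result was not tested.

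Markers of other cell types were read in the same way for size. The progenitor markers had 1 of 4 lower at an unadjusted edgeR p under 0.05, the choroid plexus markers 1 of 3 lower, and the hippocampal neuron markers 2 of 3 higher. Of the 16326 genes tested, 2023 had such a p in either direction, and 1025 (6.28%) were lower. None of the 6 astrocyte, 4 microglia, 3 neuron, 3 endothelium and 3 meninges markers tested had an unadjusted p under 0.05. All 4 microglia markers had a negative size fold change, with a median of -0.11. All 3 neuron markers had a positive one, with a median of 0.088, as did 2 of the 3 hippocampal neuron markers, with a median of 0.168 over the 3. The pituitary markers had 1 of 2 higher, and GH1, a pituitary hormone gene, reached 306 CPM in SGA HF replicate 4 with a median of 0 over the 24 libraries. Without that litter the size log2 fold changes were -0.22 for MSMO1 (edgeR adjusted p = 0.518) and -0.23 for INSIG1 (adjusted p = 0.492), and neither was called.

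Within each diet the comparison rested on 6 litters. On CON, 4 of the 6 genes had an unadjusted edgeR p under 0.05 with a lower level in SGA, against 4.46% of all genes. Their log2 fold changes were -0.28 for HMGCS1, -0.26 for MSMO1, -0.24 for INSIG1 and -0.17 for FDFT1. On HF, 2 of the 6 did so, against 4.13% of all genes, namely INSIG1 at -0.24 and MSMO1 at -0.23. The others on HF were FDFT1 at -0.14, HMGCS1 at -0.135 (lower in 4 of 6 litters, against 6 of 6 on CON), SQLE at -0.12 and DHCR7 at -0.009. On CON, SQLE was at -0.09 and DHCR7 at 0.07. The sign of HMGCS1 on HF turned in cohort 1 alone (0.028) and with surrogate variables and no litter term (0.004), and that of SQLE on CON turned in the latter (0.037). None of the 6 was called in either diet, where 0.447% and 0.221% of all genes were called. The difference between the 2 diets in the effect of size was tested directly. None of the 6 was called for that interaction (0.0796% of all genes were) and none had an unadjusted edgeR p under 0.05 (3.73% did), and the widest 95% interval, that of HMGCS1, ran from -0.14 to 0.42.

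The HF formula was not associated with a called change in any of the 6 genes. None of the 6 was called (0.0429% of all genes were) and none had an unadjusted edgeR p under 0.05 (3.98% of all genes did) when the 6 HF litters were compared with the 6 CON litters with sex and cohort in the model. An exact two-sided test over the 924 splits of the litters also gave none of the 6 an unadjusted p under 0.05, against 4.1% of all genes.

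The HF minus CON log2 fold change was positive for 5 of the 6 genes. MSMO1 had the largest, 0.15 with a 95% interval of -0.04 to 0.34 (edgeR adjusted p = 0.846, exact p = 0.121), from litter means of 7.69 ± 0.20 log2 CPM on CON and 7.87 ± 0.14 on HF (SD, n = 6). SQLE had 0.13 with an interval of -0.01 to 0.28 (edgeR adjusted p = 0.810, exact p = 0.0844), with 12 CON piglets at 96.5 to 141 CPM and 12 HF piglets at 113 to 176 CPM. FDFT1 had 0.08 (-0.09 to 0.24), HMGCS1 0.06 (-0.16 to 0.28) and INSIG1 0.05 (-0.13 to 0.23). DHCR7 had -0.07 with an interval of -0.19 to 0.05. In AGA piglets alone and in SGA piglets alone, none of the 6 was called for diet and none had an unadjusted edgeR p under 0.05 (0.0184% and 0.0613% of all genes were called, and 3.38% and 4.61% had such a p).

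The remaining genes of the pathway were described from a list of 16, of which 14 were tested. MVD and LBR could not be matched. None of the 14 was called for size, and 11 of the 14 had a negative fold change, against 49.22% of all genes. With an unadjusted edgeR p under 0.05, 4 of the 14 were lower in SGA, against 6.28% of all genes. These 4 were ACAT2 (log2 fold change -0.17), SC5D (-0.17), FDPS (-0.16) and NSDHL (-0.14), of which FDPS, SC5D and NSDHL are named after their values were seen. ACAT2 joins acetyl-CoA units at the start, FDPS makes farnesyl diphosphate, NSDHL takes part in removing the methyl groups with MSMO1, and SC5D acts just before DHCR7. The median over the 14 was -0.09. On CON, 13 of the 14 were negative (median -0.13), and on HF 9 of the 14 (median -0.055). For the interaction none of the 14 was called, and 1 had an unadjusted edgeR p under 0.05, against 3.73% of all genes. That gene was LSS, named after its values were seen, with 0.23 ± 0.10 (edgeR p = 0.0418, adjusted p = 0.772, exact p = 0.0411).

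For diet, 11 of the 14 had a positive fold change and none was called. TM7SF2, a sterol reductase, was highest with 0.23 ± 0.06 (edgeR p = 0.00192, adjusted p = 0.473, exact p = 0.00216, the smallest that 6 against 6 litters allow). PMVK, a kinase of the mevalonate route named after its values were seen, had 0.19 ± 0.08 (edgeR p = 0.026, exact p = 0.0909). No other gene of the 14 had an unadjusted edgeR p under 0.05 for diet, and 3.98% of all genes did.

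**Figure D4:**
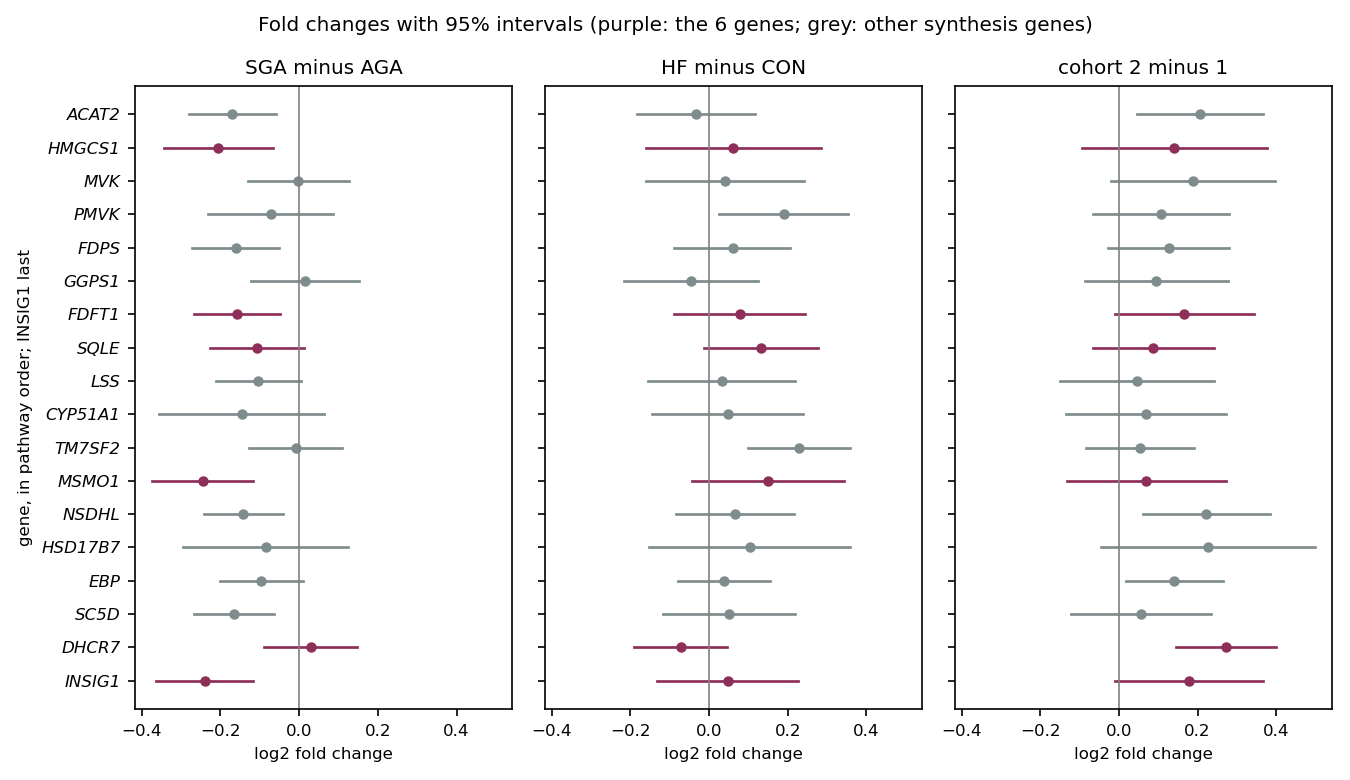
Log2 fold changes (x axes) with 95% intervals for 18 genes in pathway order (y axis) for size, diet and cohort, purple for the 6 genes described and grey for 12 of the other 14. For size the intervals of HMGCS1, FDFT1, MSMO1 and INSIG1 lie below 0, for diet all 6 purple intervals include 0, and for cohort all 18 points lie above 0.

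The other regulators of the pathway gave no call for size or diet. Of 11 listed, 9 were tested, and INSIG2 and ERLIN1 could not be matched. SREBF2, which encodes the main SREBP of cholesterol genes, had a size log2 fold change of 0.015 ± 0.05, and SCAP had 0.04 ± 0.07, the highest of the list. MBTPS2, a protease that releases SREBP from the membrane, was lowest with -0.35 ± 0.12 (edgeR p = 0.0113, exact sign-flip p = 0.00684). It had only 19 to 56 counts per library, and was at -0.48 ± 0.18 on CON and -0.225 ± 0.17 on HF. For diet the 9 ran from -0.09 (SCAP) to 0.15 (MBTPS2), none with an unadjusted p under 0.05.

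Genes of sterol uptake, export and turnover gave no called change with size or diet either. Of 12 listed, 9 were tested, and none had an unadjusted edgeR p under 0.05 for either. ABCA1 and ABCG1, which export cholesterol, had size log2 fold changes of 0.09 ± 0.13 and 0.11 ± 0.15. ABCG1, with only 7 to 47 counts per library, was at -0.27 on CON and 0.50 on HF. Its size by diet interaction was 0.77 ± 0.30 (edgeR p = 0.0214, adjusted p = 0.725, exact p = 0.00649). It was 1 of the 9 with an unadjusted edgeR p under 0.05 for the interaction, against 3.73% of all genes.

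DHCR7 differed between the cohorts. It was called higher in cohort 2, as 1 of the 6 genes, where 8.97% of all genes were called and 4.09% were called higher. Its CPM was 67.0 to 91.9 with a median of 79.8 in the 12 piglets of cohort 1 and 86.8 to 113 with a median of 92.5 in the 12 of cohort 2. The 2 cohorts overlapped only between 86.8 and 91.9 CPM. The log2 fold change was 0.27 ± 0.06 (edgeR adjusted p = 0.0623, adjusted over this contrast alone). The litter means were higher in cohort 2 on both diets, 6.66 ± 0.02 against 6.33 ± 0.08 log2 CPM on CON and 6.53 ± 0.08 against 6.31 ± 0.10 on HF (SD, n = 3). It was called with each of the 12 litters left out in turn. The other 5 genes had positive cohort fold changes from 0.07 (MSMO1) to 0.18 (INSIG1), none called.

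All 14 other synthesis genes also had positive cohort fold changes, where the median over all genes was -0.012. Of the 14, 4 were called higher, where 8.97% of all genes were called and 4.09% were called higher. Among them were NSDHL (0.22), ACAT2 (0.21) and EBP (0.14). SREBF2 was called as well, with 0.19 ± 0.06, and ABCA1 was called lower with -0.28 ± 0.11. Of the 8 oligodendrocyte markers, 6 were called for cohort, against 4.09% of all genes called higher. These markers were higher in cohort 2 in 8 of 8, with a median of 0.42. Their summed level was 11670, 17300 and 23290 CPM (lowest, median and highest) in cohort 1 and 12660, 21570 and 25310 CPM in cohort 2, and their part in these differences was not tested. Sex gave no call among the 6 genes (0.19% of all genes were called) and none had an unadjusted edgeR p under 0.05 (3.65% of all genes did).

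All but DHCR7 varied together from piglet to piglet. After removing group means, the 15 pairwise correlations over the 24 libraries had a median of 0.712 and ran from -0.062 to 0.862. The highest was that of SQLE with FDFT1, followed by HMGCS1 with MSMO1 at 0.847 and HMGCS1 with INSIG1 at 0.787. DHCR7 stood apart, with correlations from -0.062 with MSMO1 to 0.222 with FDFT1. These libraries share litters and cohorts, and the correlations are given as a description.

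The genes most like the mean profile of the 6, over the same 24 libraries, included GAB1 (r of 0.812, rank 2), then SC5D (0.79), CLIC4, RHOU, VASH1, S100A4, ACAP2, ACSL1 and TMEM63A (0.738). SC5D is a synthesis enzyme, and S100A4 had a mean of only 0.62 CPM, near the level of a few counts. ACAT2 came next at rank 11 with 0.734. Among the oligodendrocyte markers, MOBP had 0.602 (rank 123 of 12356 genes with a symbol), CNP 0.599 and MBP 0.502, and the lowest was MOG with 0.225. Markers of other cells also had high or low values, named after they were seen. Among microglia markers AIF1 had 0.539 (rank 258) and P2RY12 0.488, and the lowest of the 4 was CSF1R with 0.069. Among choroid plexus markers TTR had -0.6, while KCNJ13 had 0.078 and FOLR1 0.311.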

How the data were processed

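The authors trimmed single-end reads with Trimmomatic 0.33, aligned them to Sscrofa10.2 with STAR 2.5.2a and deposited whole-number counts per Entrez gene from featureCounts (Subread 1.5.0, exons, strand used, default settings otherwise). The entry with no gene identifier held 0.613 to 1.62% of counts and was left out. Groups, litters and cohorts came from the labels. Littermates are named as pairs there, and their deviations correlated at 0.154 on average (0.0144 to 0.329), against 0.0314 for other pairs. Different litters may share a sow.

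From the counts, genes with 1 CPM in at least 3 libraries were tested with edgeR 4.0.16 in R 4.3.3 after TMM scaling. Size and its interaction with diet used all 24 libraries with litter as a block. Diet, cohort and sex used counts summed per litter, with the other two as covariates, and diet within AGA or SGA used 12 libraries with sex and cohort. The Benjamini-Hochberg adjustment covered 114282 tests over 7 contrasts, as in the study, and cohort and sex were adjusted each alone. The study's own model (limma voom with surrogate variables) was an alternative, fitted with edgeR. Exact tests used 4096 sign flips or 924 splits of log2 CPM (prior count 2). Scripts were tested on simulated data.

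The genes, lists and tests were chosen with earlier results of these data known. The 6 genes are all named. Others are named where called or at an end of their list, or as stated. Gene names came from a RefSeq table of Sscrofa11.1, in which CYP51A1 is named CYP51. Results for some genes are not reported here.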

Additional observations from a re-analysis of the deposited data

How the results depend on the processing

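The number of the 6 genes called for size was 2 with the litter block, where 150 of all 16326 genes were called. It was 4 with the FDR over that contrast alone, where 1967 of all genes were called. The exact sign-flip test (added after seeing the data) also gave 4, with 2075 of all genes called. It was 1 with DESeq2 size factors (148 of all genes) and 0 at an FDR p under 0.05 (0 of all genes). It was also 0 in cohort 1 alone (1 of all genes) and in cohort 2 alone (16 of all genes). Without the replicate block it was 0 with sex and cohort (106 of all genes) and 0 with sex and 5 surrogate variables (78 of all genes). Leaving out 1 litter gave 0 to 2 for size (58 to 221 of all genes) and 1 to 3 for cohort (309 to 2408 of all genes). The number with a lower level and an unadjusted p under 0.05 was 4, 0 with surrogate variables and no replicate block, and 2 in cohort 1 alone, and it was 4 to 5 on leaving out each litter. With no filter beyond 1 count, 2 were called for size on CON and 3 for cohort. Over all 27413 genes then tested, 695 and 2035 were called, against 73 and 1465 of 16326 with the filter. The fits without the replicate block changed no other count of calls among the 6 genes for size within a diet, the interaction or diet. No alternative moved the median of all genes for size by over 0.1. Some directions turned. DHCR7 for size was -0.015 in cohort 1 alone, and -0.002 to 0.054 on leaving out each litter. DHCR7 on HF was 0.005 with no filter, 0.081 in cohort 2 alone, and -0.047 to 0.029 on leaving out each litter. HMGCS1 on HF was 0.028 in cohort 1 alone. With surrogate variables and no replicate block, SQLE for size on CON was 0.037, HMGCS1 for size on HF 0.004, HMGCS1 for diet -0.098 and INSIG1 for diet -0.039. INSIG1 for diet was -0.014 in cohort 1 alone. On leaving out each litter, HMGCS1 for diet ran from -0.017 to 0.129 and INSIG1 for diet from -0.015 to 0.113. The cause of these changes was not tested. TM7SF2 was called for diet with surrogate variables (0.241). With 12 litters and a median SE of 0.104 for size and 0.112 for diet over all genes, small differences can be missed.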
